A study of Mus musculus with 53 samples.

Results

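The 35 genes followed here encode the enzymes that burn fatty acids in the heart. They were taken from a list of named members and matched to the gene column of the deposited expression table, where all 35 were found among 34306 genes. Of these, 32 reached 1 RPKM or more in at least 2 libraries and were tested (RPKM is a read count divided by transcript length and library size). Acad10, Acsl3 and Acsl4 stayed below that limit and were not tested.

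Messenger RNA was sequenced from adult mouse hearts as input, the cytoplasmic RNA, and as TRAP RNA (translating ribosome affinity purification), the RNA that comes down with ribosomes captured by a tag. CAG hearts, with the tag in all lineages, gave 2 libraries each of sham input, sham TRAP, band input and band TRAP, and 1 library each of input and TRAP without surgery. Tie2 hearts, where the tag is switched on by Tie2-Cre in endothelial cells, gave 1 library each of input and TRAP without surgery, and this Cre is known to act in part of the blood cells too. Banding tied the ascending aorta of male mice against a 25-gauge needle, and the sham operation left out the ligature. The first deposit names a 129/C57BL mixed background and those Cre lines, while the labels of the 12 libraries used here give only heart, adult and the treatment. RNA was pooled, and the labels do not tie the 2 libraries of a group to different mice. The p-values therefore speak of the spread between libraries alone, and that spread may be technical.

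Long-chain fatty acids are joined to coenzyme A by acyl-CoA synthetases, carried into mitochondria as carnitine esters, and shortened in repeated cycles of the beta-oxidation spiral, in which an acyl-CoA dehydrogenase, a hydratase, a second dehydrogenase and a thiolase act in turn. Electrons from the first step pass through the electron transfer flavoprotein to the respiratory chain. The adult heart draws most of its energy from this route, and lower transcript levels of its enzymes are a widely reported feature of hearts under pressure overload.

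Several genes of the pathway are known targets of the nuclear receptors PPAR alpha and ERR alpha, which bind sequences built on the hexamer AGGTCA. A set of 4 stretches is shown as examples from genes named below. It is not a fair sample of the members, because the stretches of Acadvl and Cpt1a are among the few with the hexamer. The first lies between Hadha and Hadhb, which encode the alpha and beta subunits of the mitochondrial trifunctional protein and start head to head, so that 1 stretch of 272 bases separates their starts and could serve both. The others are the 250 bases before the starts of Acadvl, which was lower in Tie2 TRAP than in Tie2 input, and of Cpt1a and Acsl5, which were higher there. Capitals mark AGGTCA or its reverse complement, and sequences read 5' to 3', the first on the plus strand and the others toward their gene, from RefSeq on GRCm38.p6.
Hadha-Hadhb, chr5:30154981-30155252, plus strand: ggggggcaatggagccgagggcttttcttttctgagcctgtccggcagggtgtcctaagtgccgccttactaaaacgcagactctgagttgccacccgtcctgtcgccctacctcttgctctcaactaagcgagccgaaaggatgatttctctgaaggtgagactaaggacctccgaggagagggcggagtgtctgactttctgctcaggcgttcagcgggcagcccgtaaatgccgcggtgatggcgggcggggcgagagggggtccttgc
Acadvl, chr11:70015429-70015678, minus strand: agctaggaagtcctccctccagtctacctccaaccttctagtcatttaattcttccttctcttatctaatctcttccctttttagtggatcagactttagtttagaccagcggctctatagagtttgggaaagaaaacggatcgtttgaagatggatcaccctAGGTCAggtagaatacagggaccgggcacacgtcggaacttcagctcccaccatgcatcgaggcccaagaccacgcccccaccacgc
Cpt1a, chr19:3323051-3323300, plus strand: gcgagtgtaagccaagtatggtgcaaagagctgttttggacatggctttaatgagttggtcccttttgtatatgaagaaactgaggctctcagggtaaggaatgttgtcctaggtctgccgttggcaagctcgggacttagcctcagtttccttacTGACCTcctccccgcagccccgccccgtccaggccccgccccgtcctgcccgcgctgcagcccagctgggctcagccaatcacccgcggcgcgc
Acsl5, chr19:55253119-55253368, plus strand: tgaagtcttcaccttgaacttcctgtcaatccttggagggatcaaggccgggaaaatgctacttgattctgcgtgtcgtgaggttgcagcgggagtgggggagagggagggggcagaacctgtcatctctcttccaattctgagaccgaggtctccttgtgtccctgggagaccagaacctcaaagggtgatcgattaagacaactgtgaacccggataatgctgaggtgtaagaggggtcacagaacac

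Promoter windows from 250 bases before to 50 bases after the start were matched by symbol for 29 of the 35 members, as 30 windows. Cpt1b, Acad9, Crat, Acaa2, Decr1 and Acot13 had no entry. On either strand, AGGTCA stood in 4 of the 30 windows (13.3%), those of Acadm, Echs1, Acadvl and Cpt1a, against 16.3% of all 32851 windows. The ERR element TNAAGGTCA, which contains the hexamer, was in 0 of 30 against 1.28%, and the DR1 element, a pair of such hexamers with 1 base between them, in 0 of 30 against 0.0396%. The 272 bases between Hadha and Hadhb held none of these motifs. A match is a description of letters and not a binding site, and the windows reach no farther than the bases given.

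The 12 libraries held 26568988 to 94878619 recovered reads. Replicates of band TRAP stood farthest apart, with a median absolute log2 difference of 0.204 across genes against 0.0809 for sham input, 0.0959 for sham TRAP and 0.109 for band input, and with band TRAP library 1 and library 2 at 162 and 70.1 RPKM for Decr1. Levels of 17 cardiomyocyte markers summed to 78300 to 105000 RPKM in the CAG libraries and 104000 RPKM in Tie2 input, while Tie2 TRAP had 4860 RPKM, while 17 endothelial markers summed to 232 to 280 RPKM in CAG libraries, 367 RPKM in the Tie2 input library and 4050 RPKM in that of Tie2 TRAP. Mitochondrially encoded transcripts took 13.7% to 15.9% of the reads of operated input libraries and 0.0587% to 0.293% of those of operated TRAP libraries.

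The members spanned means of 0.306 to 1580 RPKM in sham input. Etfb and Etfa encode the subunits of the electron transfer flavoprotein. Etfb was the highest member, at 1600 and 1570 RPKM, and Ech1, an auxiliary dienoyl-CoA isomerase of mitochondria and peroxisomes, followed at 1040 and 1030 RPKM. The next were Acot13, a small thioesterase that cleaves acyl-CoA, with a mean of 474 RPKM, Etfa with 466 RPKM, the 3-ketoacyl-CoA thiolase Acaa2 with 388 RPKM, the medium-chain dehydrogenase Acadm with 378 RPKM, the long-chain dehydrogenase Acadl with 371 RPKM, and the isomerase Eci1 with 369 RPKM. Neighbours in this order, such as Acot13 at 468 and 479 RPKM and Etfa at 470 and 462 RPKM, or Acadl at 374 and 367 RPKM and Eci1 at 372 and 367 RPKM, overlapped between libraries.

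The middle of the range held most of the spiral. Hsd17b10, which oxidises short branched acyl-CoA in isoleucine breakdown, had a sham input mean of 303 RPKM, and Hadha one of 293 RPKM. The very long-chain dehydrogenase Acadvl followed at 207 RPKM, carnitine acetyltransferase Crat at 122 RPKM, the 2,4-dienoyl-CoA reductase Decr1 at 119 RPKM, the 3-hydroxyacyl-CoA dehydrogenase Hadh at 109 RPKM and the isomerase Eci2 at 104 RPKM. Next to each other came the enoyl-CoA hydratase Echs1 (80.3 RPKM), the short-chain dehydrogenase Acads (78.6 RPKM), the long-chain synthetase Acsl1 (78.6 RPKM), Hadhb (77.9 RPKM), the flavoprotein dehydrogenase Etfdh (75.7 RPKM), the inner membrane carnitine palmitoyltransferase Cpt2 (66 RPKM) and the mitochondrial thioesterase Acot2 (61.8 RPKM).

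Below these were malonyl-CoA decarboxylase Mlycd at 31.2 RPKM, which removes the inhibitor of carnitine palmitoyltransferase 1, the dehydrogenases Acad11 at 16.7 RPKM and Acadsb at 16 RPKM, the cytosolic thioesterase Acot1 at 12.9 RPKM, the isobutyryl-CoA dehydrogenase Acad8 at 8.9 RPKM and the peroxisomal thiolase Acaa1a at 8.58 RPKM. Cpt1b at 2.92 RPKM, Cpt1a at 2.87 RPKM, Acsl5 at 2.75 RPKM and Acad9 at 2.44 RPKM formed the lowest tested group. Acad10, Acsl4 and Acsl3 had means of 0.769, 0.544 and 0.306 RPKM. Acot1 and Acot2, and Acaa1a and its paralog Acaa1b, are near-identical copies whose reads the counting could have split, so their levels are uncertain. The order of all members also rests on the 1 transcript length given for each gene. For example, Echs1 with 4088 bases and Acads with 2023 bases had 15674 and 7958 recovered reads in sham input library 1.

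**Figure D1:**
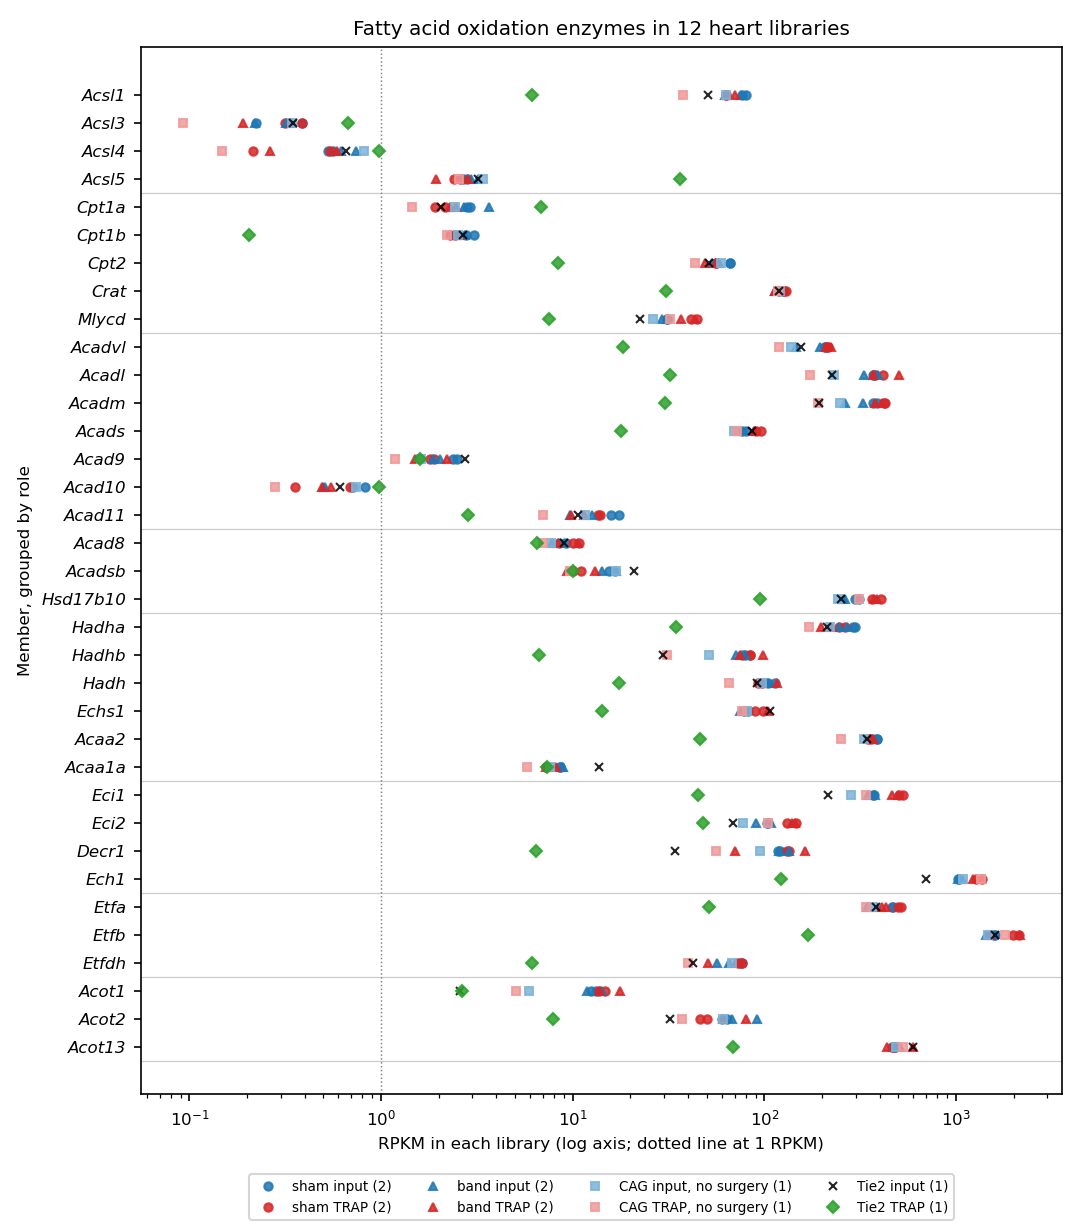
RPKM (log axis) of the 35 members, grouped by role from the synthetases at the top to the thioesterases at the bottom, with 1 point for each of the 12 libraries. CAG libraries lie close together for most members, and Tie2 TRAP lies to their left for most of them. Tie2 TRAP lies to their right for Acsl5 (36.3 RPKM) and Cpt1a (6.82 RPKM). The same holds for the untested Acad10 (0.973 RPKM), Acsl4 (0.973 RPKM) and Acsl3 (0.671 RPKM).

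Cpt1b stood out as a low value. It encodes the muscle form of carnitine palmitoyltransferase 1, the entry step into mitochondria that is usually taken as the main form of the adult heart. Its values were 3.07 and 2.78 RPKM in sham input, 2.29 and 2.44 RPKM in sham TRAP, 2.73 and 2.43 RPKM in band input and 2.56 and 2.46 RPKM in band TRAP, so all 8 operated libraries lay between 2.29 and 3.07 RPKM. Cpt1a, the form widely expressed outside muscle, was at 2.93 and 2.82 RPKM in sham input, so that the libraries of these genes interleave there. Chkb, the next gene beyond Cpt1b on the reference annotation, was read at 14 to 30.9 RPKM in CAG libraries. The level of Cpt1b is therefore uncertain, and any loss of its reads beside Chkb, or sharing with it, was not tested.

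In CAG hearts after sham surgery, a few members took a larger part of TRAP RNA than of input RNA, and most moved little. Of 32 tested members, 6 rose, namely the isomerases Eci1, Eci2 and Ech1, the dehydrogenases Hsd17b10 and Acads, and Mlycd, and 1 fell, the short and branched chain dehydrogenase Acadsb. Among all 11654 genes tested, 15.1% were called higher and 24.5% lower (limma on log2(RPKM + 1), adjusted p under 0.05), so that the share of members called higher was near that background. The members' median difference was 0.06 on the log2(RPKM + 1) scale, against -0.09 over all genes tested.

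Eci1, which moves double bonds so that unsaturated fatty acids can enter the spiral, was at 372 and 367 RPKM in sham input and 529 and 505 RPKM in sham TRAP. Both TRAP libraries lay above both inputs, and the difference was 0.48 (SE 0.08) with an adjusted p of 0.00536 from limma. Mlycd had the next largest difference, with 31.2 and 31.2 RPKM in input and 41.4 and 44.4 RPKM in TRAP, 0.45 higher (SE 0.10, adjusted p = 0.0126). Eci2, which does a like isomerisation, was at 105 and 103 RPKM in input and 146 and 131 RPKM in TRAP, a difference of 0.41 (SE 0.11, adjusted p = 0.0211). The groups did not overlap for any of these genes, but with 2 libraries on each side this adds little to the calls. The share of all genes without overlap was not counted.

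Ech1 rose from 1040 and 1030 RPKM to 1360 and 1270 RPKM, by 0.35 (SE 0.09, adjusted p = 0.0183), and Hsd17b10 from 296 and 311 RPKM to 405 and 366 RPKM, by 0.34 (SE 0.08, adjusted p = 0.0171). Acads rose from 80.5 and 76.8 RPKM to 90.4 and 95.5 RPKM, by 0.24 (SE 0.07, adjusted p = 0.0418). Acadsb, which acts on short branched acyl-CoA of isoleucine breakdown, fell from 15.5 and 16.6 RPKM in input to 10.1 and 11 RPKM in TRAP, a difference of -0.56 (SE 0.16, adjusted p = 0.0282). In each of these the TRAP and input libraries did not overlap, with the same limit.

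By role, 3 of the 4 enzymes for unsaturated chains rose after sham surgery, with a median of 0.38, the fourth being Decr1 at 0.15 (SE 0.33, adjusted p = 0.738 by limma). None of the 6 enzymes of the later steps was called, with a median of -0.17, and their values ran from -0.22 for Acaa1a to 0.22 for Echs1. In the carnitine shuttle, Mlycd was called while Cpt1a (-0.35), Cpt2 (-0.24) and Cpt1b (-0.22) had values below 0 and Crat had 0.08. The synthetases Acsl1 and Acsl5 had -0.31 and -0.10. Of the dehydrogenases other than Acads, Acadm had 0.16, Acadl 0.10, Acadvl 0.05, Acad9 -0.27 and Acad11 -0.27, with none called. Etfb had 0.37 (adjusted p = 0.0988), Etfa 0.12 and Etfdh -0.02, and none of the 3 thioesterases was called.

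These calls depend on how libraries are scaled. RPKM was scaled to all reads, and mitochondrially encoded transcripts, abundant in input only, take part in that total. With values rescaled to the reads outside them, the median of all genes moved from -0.09 to -0.26 and that of the members from 0.06 to -0.16 after sham surgery, and 1 member was called higher (Eci1, 0.26) and 12 lower, where 7.75% and 38.5% of all genes were called. After banding the same rescaling gave 2 members higher (Eci2, 0.29, and Hsd17b10, 0.31) and 7 lower, against 9.21% and 40.0% of all genes. Together the 35 members took 1.03% to 1.18% of the reads in the operated input libraries and 1.22% to 1.29% in the operated TRAP libraries, and 1.23% to 1.39% against 1.22% to 1.29% of the reads outside mitochondrially encoded transcripts. The rescaling lowered the differences by a like amount, for example Eci1 after sham surgery from 0.48 to 0.26, Acads from 0.24 to 0.02 and Acadsb from -0.56 to -0.77.

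Signal from some other cells moved with the same contrast. Summed over each marker list, erythroid genes (5 of 5 measured) were at 1540 to 2550 RPKM in the operated input libraries and 61.7 to 206 RPKM in TRAP, fibroblast genes (10 of 10) at 258 to 297 and 97.5 to 152 RPKM, and macrophage and leukocyte genes (9 of 10) at 460 to 602 and 264 to 286 RPKM, none of the defining markers being at 0. Smooth muscle and pericyte genes (6 of 6) were at 175 to 185 and 129 to 165 RPKM. Endothelial genes (17 of 17) overlapped, at 240 to 268 RPKM in input and 232 to 280 RPKM in TRAP. Adipocyte genes (8 of 8, 2 of them at 0 in some libraries) were higher in TRAP, at 96.4 to 112 against 62.8 to 75.2 RPKM. Most of that sum was Cidea, at 93.5 to 109 and 59.8 to 70.1 RPKM. Cardiomyocyte genes summed to 78300 to 84700 RPKM in input and 93200 to 102000 RPKM in TRAP. Single genes of that list went both ways. Of 17, 4 were called higher in TRAP and 7 lower after sham surgery, where 15.1% and 24.5% of all genes were. After banding 6 were called higher and 6 lower, where 16.6% and 26.0% were. The part of these shifts in the members' values was not tested. In RNA of whole hearts, fewer cells of a type and less RNA per cell cannot be told apart.

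After banding, TRAP and input were related much as after sham surgery. Here 7 members rose and 1 fell, where 16.6% and 26.0% of all genes were called, and all 6 members called higher after sham surgery were among the 7. The share of all genes called in both comparisons was not counted. Both comparisons use the same estimate of spread for each gene, so their calls are not independent. The added gene was Acadm, the medium-chain dehydrogenase, which was at 328 and 264 RPKM in band input and 413 and 378 RPKM in band TRAP, 0.43 higher (SE 0.12, adjusted p = 0.0239 by limma). The members' median was 0.06 against -0.10 over all genes, and it was 0.01 without band TRAP library 1, 0.22 without band TRAP library 2 and 0.11 without band input library 1.

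Hsd17b10 had the largest difference after banding, with 263 and 258 RPKM in input and 373 and 386 RPKM in TRAP, 0.54 higher (SE 0.08, adjusted p = 0.00285). Eci2 followed, with 108 and 90.5 RPKM in input and 140 and 145 RPKM in TRAP, 0.52 higher (SE 0.11, adjusted p = 0.00793), and Eci1 with 379 and 346 RPKM against 465 and 501 RPKM, 0.41 higher (SE 0.09, adjusted p = 0.00848). For all 3 genes both TRAP libraries lay above both inputs, which adds little to calls from 2 libraries on each side. The share of all genes separated in this way was not counted.

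Mlycd was at 30.9 and 29.2 RPKM in band input and 36.9 and 43.4 RPKM in band TRAP, a difference of 0.40 (SE 0.10, adjusted p = 0.017). Acads, at 72.6 and 71.7 RPKM against 88.9 and 87.9 RPKM, differed by 0.29 (SE 0.07, adjusted p = 0.0203), and Ech1, at 1070 and 1030 RPKM against 1220 and 1350 RPKM, by 0.29 (SE 0.09, adjusted p = 0.0339). Hadha was the 1 member that fell, from 271 and 246 RPKM in band input to 197 and 225 RPKM in band TRAP, a difference of -0.29 (SE 0.10, adjusted p = 0.0468). Again none of these genes overlapped between input and TRAP libraries, and the share of all genes without overlap was not counted. Acadsb, called lower after sham surgery, had -0.45 after banding with an adjusted p of 0.0549.

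**Figure D2:**
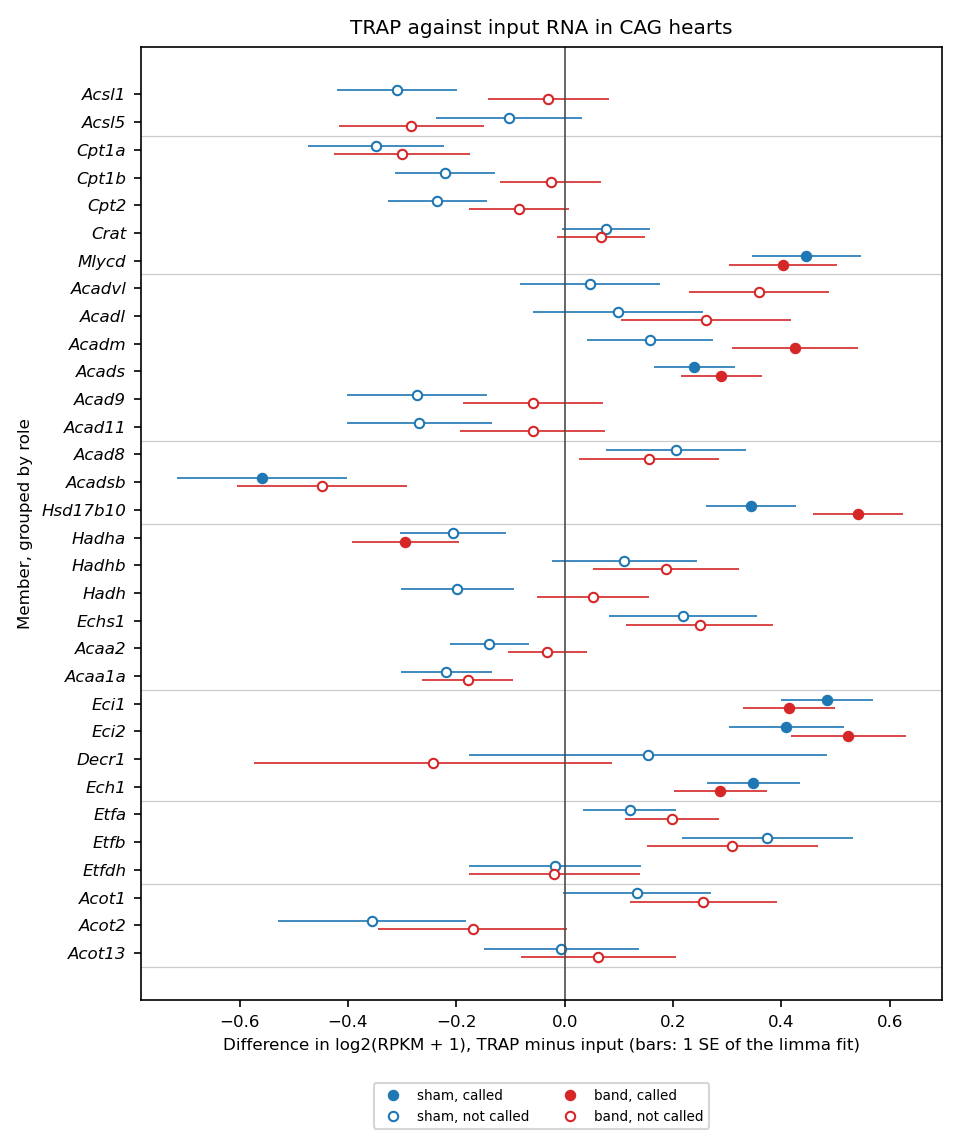
Difference in log2(RPKM + 1) between TRAP and input RNA for the 32 tested members after sham surgery (blue) and after banding (red), 2 libraries in each group, with bars of 1 SE from limma and filled points for calls. Filled points to the right are Eci1, Eci2, Ech1, Hsd17b10, Acads and Mlycd in both operations and Acadm after banding.

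The band TRAP pair carries much of the spread of this table. Without band TRAP library 2, 12 members were called higher after banding, where 21.4% of all genes were, and Decr1 turned from -0.24 (not called) to 0.36 (called higher), while without library 1 it was called lower at -0.84, where 34.5% of all genes were called lower. The sham comparison, which does not use those libraries, had 8 members called higher (22.2% of all genes) and 8 lower (32.6%) when both were left out of the estimate of spread. Leaving out sham input library 1, sham input library 2 or sham TRAP library 1 left 1 member called higher after sham surgery, where 5.75%, 7.29% and 7.31% of all genes were, and leaving out sham TRAP library 2 left 2, where 6.80% were. After banding, 2 members were called higher without band input library 2, against 9.95% of all genes.

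Among the calls, 3 held under every alternative tried for them, Eci1 after sham surgery in 20 of 20, with differences of 0.26 to 0.52, and Eci2 and Hsd17b10 after banding in 19 of 19. In the other operation Eci1 held in 16 of 19, Eci2 in 13 of 20 and Hsd17b10 in 14 of 20. The alternatives include fits without a library of the other operation, which leave the difference as it is and change only the estimate of spread. Ech1 held in 13 of 20 after sham surgery and 7 of 19 after banding, Acads in 9 of 20 and 14 of 19, and Hadha after banding in 8 of 19.

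Short transcripts ranked higher among the members. Across the 32 tested members, the TRAP to input difference and the log2 of transcript length had r = -0.54 (Spearman's rho -0.54) after sham surgery and r = -0.53 (rho -0.56) after banding. Across all 11654 genes r was -0.16 and -0.068. These are descriptions over genes that share the same libraries, and genes are not independent replicates. They use the 1 transcript length given for each gene. Of the 9 members of 1600 bases or less, 7 had a difference above 0 after sham surgery and 8 after banding, against 10 of 23 longer members in either case. The 6 genes called higher after sham surgery had a median transcript length of 1429.5 bases against 3169 bases for the others. With a length trend fitted across all genes taken out, 5 members were still called higher after sham surgery and 7 after banding. Over all 11654 genes 1572 and 1875 were called higher in that fit. Hadha lost its call after banding (-0.26, adjusted p = 0.0681 by limma).

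**Figure D3:**
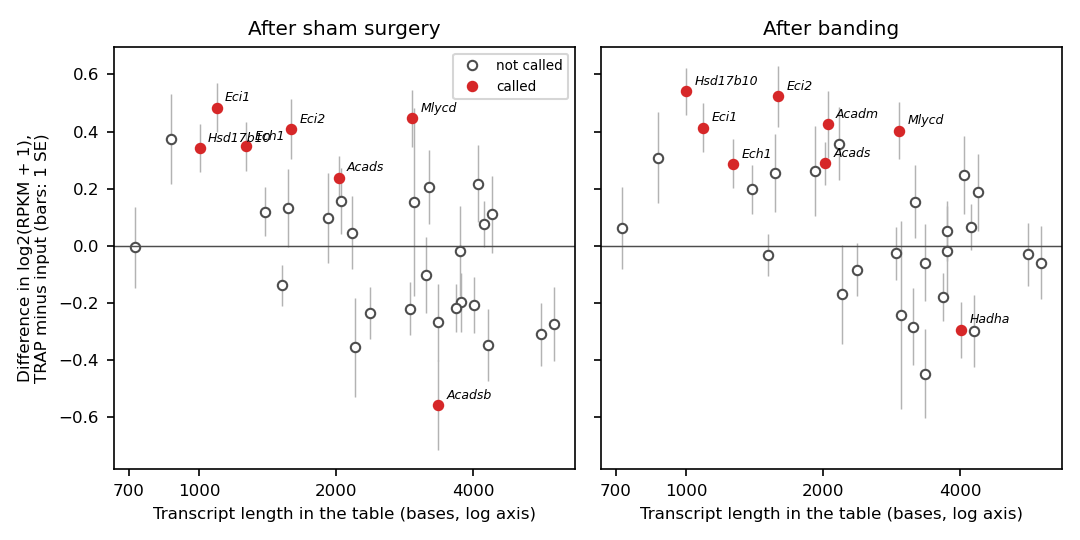
TRAP to input difference in log2(RPKM + 1) with 1 SE from limma against transcript length in the table (log axis) for the 32 tested members, after sham surgery (left) and after banding (right), with called genes filled and named. Eci1, Hsd17b10, Ech1 and Eci2, all below 1600 bases, lie above 0 in both panels, and Mlycd with 2933 bases lies above 0 too.

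Of 32 other genes of the pathway on a second list, 30 were in the table and 29 were tested. After sham surgery 2 were called higher in TRAP, the cytosolic thioesterase Acot7 (0.44) and the peroxisomal reductase Decr2 (0.34). Another 7 were called lower, including the acetyl-CoA carboxylase Acacb (-0.80), which makes malonyl-CoA, the uncoupling protein Ucp2 (-0.66) and the peroxisomal oxidase Acox3 (-0.64). After banding 2 were higher (Decr2, 0.40, and Acad12, 0.27) and 3 lower (Ucp2, -0.96, Acacb, -0.53, and Acox3, -0.49). The background over all genes was the one given above, 15.1% higher and 24.5% lower after sham surgery and 16.6% and 26.0% after banding.

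Pressure overload moved no member past the threshold. In input RNA, banding against sham surgery gave 0 of 32 members called in either direction by limma. The voom method on recovered reads also called 0. Among all genes, limma called 2.44% higher and 1.65% lower. An unadjusted p under 0.05 from limma was found for 5 of 32 members and for 2253 of all 11654 genes. Values below 0 prevailed, in 24 of 32 members, with a median of -0.07 against -0.01 over all genes. The 8 members above 0 became 4 without band input library 1 (median -0.14) and 13 without band input library 2 (median -0.04).

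Markers of some other cells moved in the same comparison. Macrophage and leukocyte markers were above 0 in 8 of 8 tested (median 0.22, 2 called higher), with sums of 602 and 507 RPKM in band input against 460 and 470 RPKM in sham input. Erythroid markers were below 0 in 5 of 5 (median -0.54, 1 called lower), with 1540 and 1940 RPKM against 2550 and 2490 RPKM, and endothelial markers in 15 of 17 (median -0.20, 0 called). Other lists went both ways in input RNA. Above 0 were 4 of 10 fibroblast markers (1 called higher, 1 lower), 3 of 6 smooth muscle and pericyte markers (1 called higher) and 10 of 17 cardiomyocyte markers (3 called higher). In TRAP RNA, erythroid markers were below 0 in 5 of 5 (median -1.04, 3 called lower) and endothelial markers in 16 of 17 (median -0.20, 0 called). Macrophage and leukocyte markers were above 0 there in 5 of 8 (median 0.02, 0 called). No marker of these lists was at 0 in any library, and their part in the members' values was not tested.

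The lowest values in input RNA were in the first step of the spiral and in electron transfer. All 6 tested dehydrogenases of the first step and all 3 electron transfer genes had values below 0, with medians of -0.26 and -0.31. Acad11, a member of the acyl-CoA dehydrogenase family, was at 17.5 and 15.9 RPKM in sham input and 12.6 and 9.73 RPKM in band input, a difference of -0.55 (SE 0.13, adjusted p = 0.0746 by limma). Acadm was at 389 and 368 RPKM against 328 and 264 RPKM, -0.36 (SE 0.12, adjusted p = 0.151). In both genes the band libraries lay below the sham libraries, although no test passed. How many of all genes were separated in this way was not counted.

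Etfa, at 470 and 462 RPKM in sham input and 388 and 345 RPKM in band input, differed by -0.35 (SE 0.09, adjusted p = 0.0801), and Etfdh, at 76.7 and 74.7 RPKM against 65.3 and 56.6 RPKM, by -0.31 (SE 0.16, adjusted p = 0.347). Acadvl was at 207 and 208 RPKM in sham input and 194 and 147 RPKM in band input, -0.29 (SE 0.13, adjusted p = 0.277). Its band libraries also lay below the sham libraries, band library 2 by far the more. Acot2 went the other way, with 59.8 and 63.8 RPKM in sham input and 91.5 and 68.1 RPKM in band input, a difference of 0.35 (SE 0.17, adjusted p = 0.334).

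Without both band TRAP libraries in the fit, 4 members were called lower after banding in input RNA, namely Acad11 (adjusted p = 0.0254), Etfa (0.0237), Cpt2 (0.0465) and Etfdh (0.0477), against 6.31% of all genes called lower in the same fit (limma). This fit was chosen after seeing the data. Differences of the members are the same in it, and only the estimate of spread changes.

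In TRAP RNA the values of the first step lay nearer to 0, with a median of -0.04. Here too 0 of 32 members were called by limma and 0 by voom, where limma called 2.21% of all genes higher and 1.56% lower. An unadjusted p under 0.05 from limma was found for 4 of 32 members and for 2295 of all 11654 genes. Values lay below 0 in 18 of 32 members, with a median of -0.03 against -0.01. The 14 members above 0 became 19 without band TRAP library 2, with a median of 0.02. Acadm was at 425 and 419 RPKM in sham TRAP and 413 and 378 RPKM in band TRAP (-0.10), and Acadvl at 215 and 213 RPKM against 224 and 210 RPKM (0.02).

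Acot2 had the highest value, with 46.2 and 50 RPKM in sham TRAP and 80.6 and 60.9 RPKM in band TRAP, 0.54 higher (SE 0.17, adjusted p = 0.15 by limma), and Acad11 the lowest, with 13.9 and 13.5 RPKM against 11.4 and 9.84 RPKM, -0.34 (SE 0.13, adjusted p = 0.218). The groups did not overlap for either gene, but the share of all genes without overlap was not counted. All 3 electron transfer genes were again below 0, Etfdh at -0.31, Etfa at -0.27 and Etfb at -0.19. Etfb was at 2130 and 1980 RPKM in sham TRAP and 1510 and 2160 RPKM in band TRAP, so that its groups overlapped. Leaving out band TRAP library 1 gave Hadh as called higher and Decr1 and Etfdh as called lower, where 4.92% and 9.34% of all genes were called. Leaving out library 2 gave Acot2 and Acot13 as higher and Etfb and Hadha as lower, where 9.34% and 7.57% were.

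**Figure D4:**
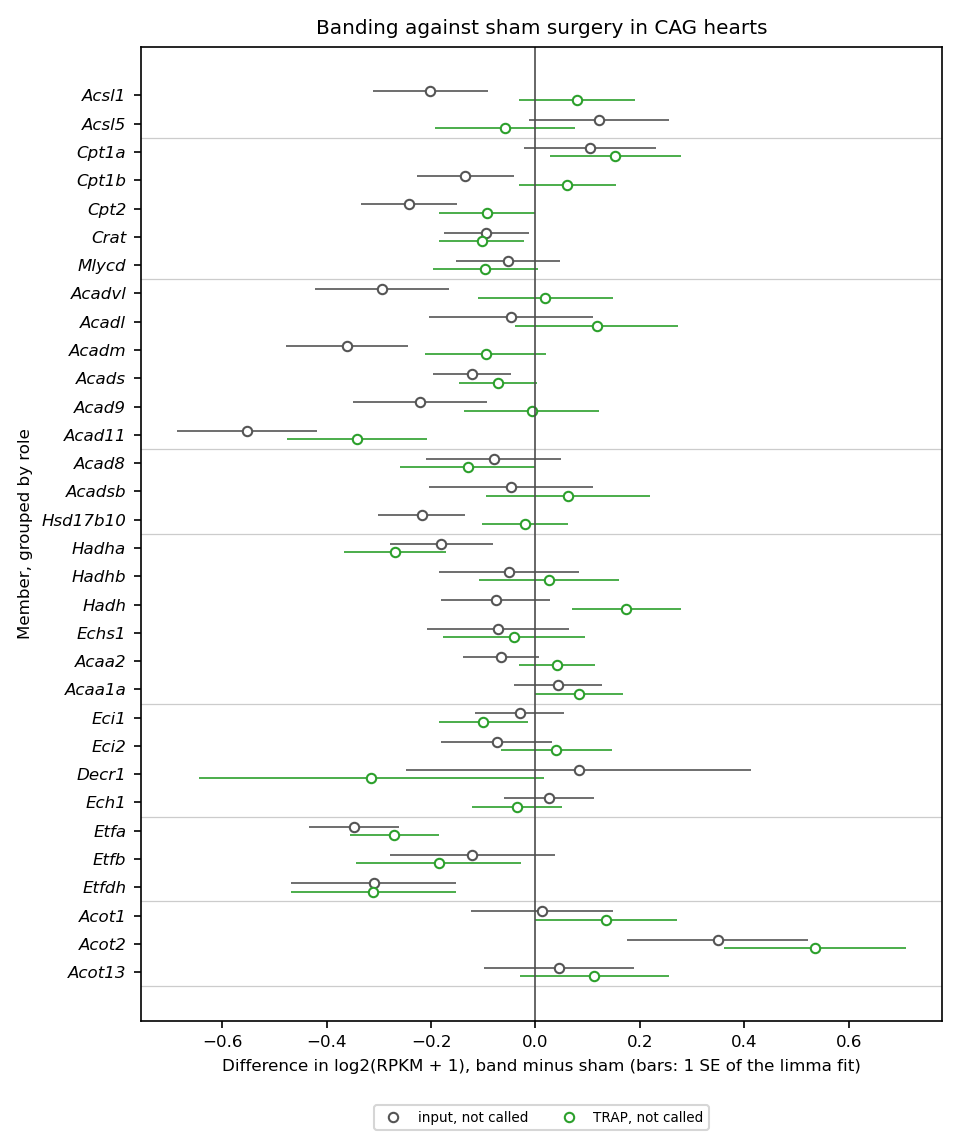
Difference in log2(RPKM + 1) between banding and sham surgery for the 32 tested members in input RNA (grey) and TRAP RNA (green), 2 libraries in each group, with bars of 1 SE from limma. All points are open because no member was called. The grey points of Acad11, Acadm, Etfa, Etfdh and Acadvl lie farthest to the left and the points of Acot2 to the right.

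Whether banding changed the ratio of TRAP to input was tested as an interaction. It called 0 of 11654 genes in either direction, 0% of them, with 557 at an unadjusted p under 0.05, and 0 of the members, with 0 members at an unadjusted p under 0.05 and 0 called by voom. The values were above 0 for 22 of 32 members, with a median of 0.08 against 0 over all genes, but for 15 members, with a median of 0, without band input library 2. The median was 0.16 without band input library 1, 0.04 without band TRAP library 1 and 0.15 without band TRAP library 2. Values lay above 0 for all 6 tested dehydrogenases of the first step, from 0.05 for Acads to 0.31 (SE 0.18, adjusted p = 0.992 by limma) for Acadvl. A difference between the banding responses of input and TRAP RNA was thus not shown for any member. Of the 29 other pathway genes tested, 0 were called in the band against sham comparisons, in input or in TRAP RNA. At an unadjusted p under 0.05 from limma were 7 and 6 of the 29, against 2253 and 2295 of all 11654 genes.

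Input of the CAG heart without surgery had values below those of sham input for most members. This comparison was added after seeing the data, and its single unoperated input library is assumed to vary like the other groups. Values lay below 0 in 27 of 32 members, with a median of -0.20 against 0 over all genes, and 1 was called lower, Acot1, which was at 12.5 and 13.3 RPKM in sham input and 5.9 RPKM without surgery (-1.01, SE 0.17, adjusted p = 0.0312 by limma). Among all genes 0.772% were called lower and 1.57% higher, and no member was called higher.

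Acadl, Acadm and Acadvl were at 232, 249 and 137 RPKM without surgery, against 374 and 367, 389 and 368, and 207 and 208 RPKM in sham input, with adjusted p-values of 0.133, 0.0869 and 0.114. Without both band TRAP libraries in the fit, 8 members were called lower, where 5.35% of all genes were. Markers of other cells differed in the same comparison. Of 6 tested adipocyte markers 5 were called higher without surgery (median 2.37), with a sum of 180 RPKM over the list against 74.2 and 74 RPKM, and 2 of its 8 genes, Ucp1 and Lep, were at 0 in some libraries. Macrophage and leukocyte markers were below 0 in 8 of 8 tested (median -0.48, 0 called), with 313 RPKM against 460 and 470 RPKM, and erythroid markers in 5 of 5 (median -0.81, 1 called lower), with 1410 RPKM against 2550 and 2490 RPKM. The part of these markers' cells in the members' values was not tested, and surgery, cell makeup and the spread of a single library cannot be told apart here.

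In TRAP against input of the CAG heart without surgery, with 1 library on each side and no p-value, 0 of 32 members passed 1 on the log2(RPKM + 1) scale in either direction, where 0.961% of all genes were above and 7.53% below it. The median was -0.28 against -0.26 over all genes. The 4 members with the highest values were Eci2 (0.42), Hsd17b10 (0.36), Ech1 and Etfb (both 0.31), and the lowest were Decr1 (-0.75) and Etfdh (-0.74).

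In Tie2 TRAP RNA most of the pathway was lower than in Tie2 input. Comparing Tie2 TRAP with Tie2 input, 24 of 32 members were lower by more than 1 on the log2(RPKM + 1) scale and 2 were higher, where 13.1% of all genes were lower and 31.5% higher. The members' median was -2.22 against 0.48 over all genes. Each side is 1 library, so there is no replicate check and no p-value.

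On the log2(RPKM + 1) scale Etfb had the lowest difference, from 1600 RPKM in Tie2 input down to 169 RPKM in Tie2 TRAP (-3.23), followed by Acot13 from 597 to 68.8 RPKM (-3.10) and Acadvl from 155 to 18.4 RPKM (-3.01). Of the first step, Acadl went from 226 to 32.2 RPKM and Acadm from 192 to 30.4 RPKM. Hadha was at 213 and 34.5 RPKM, Acaa2 at 344 and 46.2 RPKM and Cpt1b at 2.69 and 0.205 RPKM (391 and 23 recovered reads). As a share of the input RPKM, Cpt1b was the lowest member, with 7.64%. All 3 electron transfer genes and 5 of the 6 later-step enzymes were past the threshold.

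Acsl5 and Cpt1a were the exceptions above it among the tested members. The untested Acad10, Acsl4 and Acsl3 stayed below 1 RPKM. They were at 0.973, 0.973 and 0.671 RPKM in Tie2 TRAP against 0.611, 0.659 and 0.349 RPKM in Tie2 input. Acsl5, a long-chain acyl-CoA synthetase, went from 3.2 RPKM in the Tie2 input to 36.3 RPKM in the TRAP library (507 and 4431 recovered reads), 11.3 times higher, and at 2.56 RPKM in CAG TRAP without surgery. Cpt1a was at 2.06 and 6.82 RPKM (446 and 1135 reads), 3.3 times higher, and at 1.46 RPKM in CAG TRAP. In the 10 CAG libraries Acsl5 lay between 1.93 and 3.39 RPKM and Cpt1a between 1.46 and 3.68 RPKM. Acsl1, the synthetase that led in the other libraries, was at 50.8 RPKM in Tie2 input but 6.15 RPKM in its TRAP library, so that Acsl5 was the higher of these genes in Tie2 TRAP alone among the 12 libraries.

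Set against cardiomyocyte markers, the members kept more of their input level. All 17 cardiomyocyte markers were lower in Tie2 TRAP, with 2.2% to 23.6% of their input RPKM (median 5.79%). The 32 members kept 7.64% to 1130% (median 19.9%), and 13 lay above the highest of the cardiomyocyte markers, among them Eci2 with 69.4%, Acad8 with 72.8%, Acad9 with 57.6%, Acaa1a with 53.8%, Acadsb with 48% and Hsd17b10 with 37.9%, while 19 lay within the range of those markers. Markers of endothelial cells (17 of 17 tested) and of macrophages and leukocytes (8 of 8 tested) were all higher in Tie2 TRAP by more than 1. So were fibroblast markers in 3 of 10. Lower by more than 1 were adipocyte markers in 5 of 6 tested, erythroid markers in 4 of 5 and smooth muscle and pericyte markers in 2 of 6. The part of each cell type in the TRAP values of Acsl5 and Cpt1a was not tested.

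**Figure D5:**
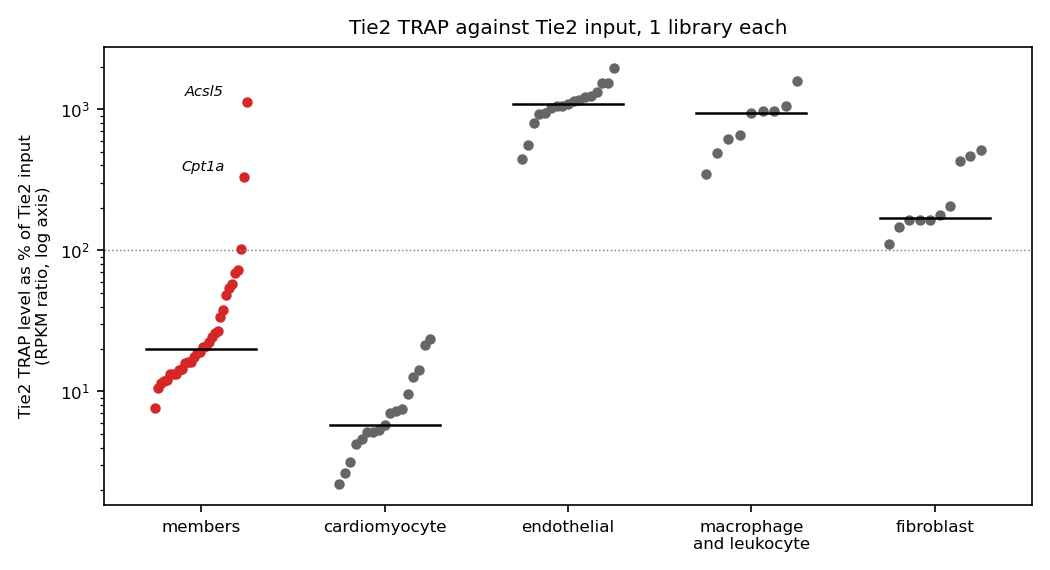
Level in Tie2 TRAP as a percentage of the level in Tie2 input (log axis, RPKM, 1 library each) for the 32 tested members (red) and the marker genes of 4 cell types (grey), with a line at each median. The members' median is 19.9% and that of the cardiomyocyte markers 5.79%, and 3 members lie above 100%. Acsl5 (1130%) lies within the range of the endothelial markers and within that of the macrophage and leukocyte markers. Cpt1a (330%) lies below all markers of both lists and within the range of the fibroblast markers, and Acot1 is at 102%.

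Against CAG TRAP without surgery, Tie2 TRAP was lower by more than 1 in 25 of 32 members and higher in 2, again Acsl5 (3.39) and Cpt1a (1.67), where 11.3% of all genes were lower and 44.4% higher. The members' median was -2.08 against 0.85 over all genes. These comparisons share the Tie2 TRAP library. Ech1 (-3.46) and Etfb (-3.41) had the lowest values on this scale, and Acadsb (0.04), Acad8 (-0.08), Acad9 (0.24) and Acaa1a (0.30) lay near 0.

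The paired subunits Hadha and Hadhb were not read in a fixed ratio, although the starts of their genes share the stretch shown above. The RPKM ratio of Hadha to Hadhb was 3.74 and 3.78 in sham input, 3.41 and 3.47 in band input, 3.13 and 2.91 in sham TRAP and 2.01 and 3.01 in band TRAP. TRAP ratios were thus below input ratios in all operated libraries. Without surgery the ratio was 4.31 in CAG input, 5.46 in CAG TRAP, 7.16 in Tie2 input and 5.15 in Tie2 TRAP, so that the CAG pair went the other way. Hadhb was at 51.2 RPKM in CAG input and 29.7 RPKM in Tie2 input without surgery, against 71 to 79.5 RPKM in the operated inputs, and Decr1 at 94.6 and 34.3 RPKM against 118 to 134 RPKM. Hadha was at 220 and 213 RPKM, against 246 to 297 RPKM, so that Hadhb and Decr1 had the lower levels in Tie2 input by the wider margin.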

How the data were processed

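RPKM values for 34306 genes, each with 1 transcript and its length, were deposited by the authors, and the 12 libraries of the second deposit were used, with 0 columns of other samples. Per the submitters' processing notes the reads went through CASAVA 1.8.2, TopHat 1.4 and HTSeq 0.5.3 on build NCBIM37, and the annotation and settings are not given in the sources used here. Libraries were made from pooled poly(A) RNA with random primers and carry no strand mark, per the labels' protocols. How reads in overlapping genes were counted is not given, so such genes may have lost reads or shared them. Multiplied by length, 233410 of 233410 positive values were whole reads within 0.02 reads, which gave the reads of each library. The titles of the second deposit end in l1 or l2, and the step that made 1 column of them is not stated in those sources.

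The main test, on log2(RPKM + 1), was that of limma 3.58.1 under R 4.3.3 (two-sided, variance trend, 4 residual and 3.02 prior degrees of freedom) in 1 fit over the 12 libraries, over 11654 genes with 1 RPKM or more in at least 2 libraries. Values of p were adjusted by Benjamini-Hochberg, and genes were called at an adjusted p under 0.05. The scale understates changes of genes near 1 RPKM. Comparisons of single libraries have no p, and 1 on the log2 scale was the limit.

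All members are named, with values per library for those called, those that define a role and those with the largest Tie2 ratios, and from the other pathway genes up to 3 called in each direction. The members and lists were chosen with earlier results of these data known. The alternatives were the pseudocount, the filter, 3 scalings, voom on recovered reads, a length correction, the replicate block, the 8 operated libraries alone and each library left out. The comparison of unoperated with sham input, the scaling without mitochondrially encoded transcripts and the fit without both band TRAP libraries were chosen after seeing the data. No replicate pair was counted as 1 library. Libraries of the first deposit were not analysed here. Motifs and figures were made with Python 3.11.15 and matplotlib 3.10.9.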

Additional observations from a re-analysis of the deposited data

Results flagged for a closer look

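In hearts without surgery the TRAP to input ratio of 11 tested members lay on opposite sides of 0 in CAG and Tie2 hearts, with 1 library of each kind, and the difference was not tested. The share of all genes with such opposite ratios was not counted. In 3 of the 11 members the log2(RPKM + 1) ratio was below 0 in CAG and above 0 in Tie2 hearts. These were Acsl5 (-0.30 and 3.15, a gap of 3.45), Cpt1a (-0.49 and 1.35, a gap of 1.84) and Acot1 (-0.19 and 0.02, a gap of 0.21, on 204 and 160 recovered reads in the Tie2 libraries).

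In the other 8 it was above 0 in CAG and below 0 in Tie2 hearts. The Tie2 ratio minus the CAG ratio was -3.54 for Etfb, -3.22 for Acot13, -2.8 for Ech1, -2.49 for Eci1, -2.27 for Acads, -1.75 for Hsd17b10, -1.74 for Mlycd and -0.94 for Eci2. Mitochondrially encoded transcripts took 14.3% of the reads in CAG input and 3.17% in Tie2 input, against 0.0259% and 0.183% in TRAP. The ratios were not rescaled without these transcripts. The side of 0 is therefore uncertain for ratios near it, such as Acads (0.07) and Acot13 (0.13) in CAG hearts and Acot1 (0.02) in Tie2 hearts.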

How the results depend on the processing

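Members called higher in TRAP after sham surgery numbered 6, and 1 under quantile normalization, 3 with scaling without abundant genes, 1 with scaling without mitochondrially encoded transcripts and 1 to 2 with 1 library of that comparison left out. Members called lower there numbered 1, and 0 without a filter, 7 under quantile normalization, 6 without abundant genes, 12 without mitochondrially encoded transcripts, 8 without both band TRAP libraries and 0 to 8 with 1 library left out. After banding, the 7 called higher became 2 under quantile normalization and 2 without mitochondrially encoded transcripts, and ran from 2 to 12 with 1 library left out. The 1 called lower became 0 with a pseudocount of 5 RPKM, without a filter, with the length trend removed and with the replicate block, 2 with a filter of 5 RPKM and with voom, 3 under quantile normalization and without abundant genes, 7 without mitochondrially encoded transcripts and 0 to 3 with 1 library left out. Banding against sham surgery in input called 0 lower, but 1 under quantile normalization, 4 without both band TRAP libraries and up to 4 with 1 library left out. In TRAP RNA the 0 called higher became 1 to 2 and the 0 lower became 2 when a band TRAP library was left out, and the 0 lower of the interaction became 1. For unoperated against sham input, the 1 called lower became 0 without a filter and with voom, 8 without both band TRAP libraries and 0 to 8 with 1 library left out. Apart from the scalings, the spread and the number of libraries, the cause was not tested. No member called with all libraries and settings as in the report changed sign under an alternative tried. Decr1, not called there after banding, was called higher (0.36) without band TRAP library 2 and lower (-0.84) without library 1. The share of higher among all calls moved from 38.2% to 52.6% (quantile) and 16.7% (without mitochondrially encoded transcripts) after sham surgery. After banding it moved from 39% to 56.5% and 18.7%. Calls over all 11654 genes moved too. After sham surgery 1763 were higher and 2852 lower. These became 2053 and 1851 under quantile normalization, 1461 and 3506 without abundant genes and 903 and 4492 without mitochondrially encoded transcripts. After banding 1938 higher and 3026 lower became, in the same order, 2544 and 1955, 1597 and 3686, and 1073 and 4662.

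Replicate numbers are shared between groups, but 2 pairs do not show that they pair the libraries. The correlations of deviations between same-numbered libraries ran from -0.43 to 0.11. With the replicate block, 5 members were called higher in TRAP after sham surgery and 6 after banding. Over all genes 1598 and 1761 were called higher there, against 1763 and 1938 without the block. All genes called higher after banding against sham surgery fell from 284 to 183 in input and from 257 to 160 in TRAP. Groups of 2 libraries limit every call.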
